A study of Mus musculus with 16 samples.

Results

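Tcf7, Lef1, Klf2, Il7r and S1pr1, genes used to mark naive and memory T cells, were followed through the immune cells of irradiated and untreated mouse tumors. They are 5 of the 31053 genes with a row in each single-cell count matrix and are given by name, with no measured value in the rule, though the list was drawn up with earlier results of these data known. C57BL/6J mice of 6 to 8 weeks carried subcutaneous MC38 or Panc02-SIY tumors, were left untreated (NT) or received 12 Gy of focal radiation (RT), and CD45+ cells were sorted from the tumors 24 h later for droplet sequencing. The MC38 line comes from a mouse colon carcinoma. The Panc02-SIY line, of pancreatic origin, carries the introduced SIY model antigen, which T cells can recognize. Each of the 4 groups (MC38 NT, MC38 RT, Panc02-SIY NT and Panc02-SIY RT) had 4 libraries, whereas the study's methods name 3 animals per group, so that p-values measure only the spread between these libraries.

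Naive and memory T cells recirculate between blood, lymph and lymphoid organs, and they share a transcriptional program that effector and exhausted T cells turn down. Tcf7 encodes TCF-1 and Lef1 its close relative LEF-1, HMG-box transcription factors that act with beta-catenin or with Groucho corepressors and maintain naive, memory and stem-like T cells. Klf2 is a zinc finger transcription factor of quiescent, circulating lymphocytes and an activator of S1pr1. Il7r encodes the alpha chain of the receptor for interleukin-7, a survival cytokine, and S1pr1 the receptor for sphingosine 1-phosphate through which lymphocytes leave tissue. In tumors, T cells that keep Tcf7 are known as the pool from which effector cells are renewed, and NK cells and some innate lymphoid cells use Tcf7 as well.

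All 5 are protein-coding genes (GENCODE vM21, GRCm38). Tcf7 (ENSMUSG00000000782) lies at chr11:52252371-52283014 on the minus strand, Lef1 (ENSMUSG00000027985) at chr3:131110471-131224356 on the plus strand and Klf2 (ENSMUSG00000055148) at chr8:72319033-72321656 on the plus strand. Il7r (ENSMUSG00000003882) lies at chr15:9505788-9530176 and S1pr1 (ENSMUSG00000045092) at chr3:115710433-115715072, both on the minus strand. Lef1 overlaps Gm42449 on its own strand and Gm43352 on the other, and Tcf7 overlaps Gm26551 on its own strand and A630014C17Rik on the other. Reads in a same-strand overlap can be lost or split between the genes, so the levels of Lef1 and Tcf7 are less certain than those of the other 3 genes.

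Libraries of the MC38 tumors shared many cell barcodes, which bears on every MC38 value below. Of 2632 distinct MC38 barcodes, 1239 (47.1%) occurred in 2 or more of the 8 MC38 libraries and 769 in all 8, against 187 of 18136 (1.03%) in 2 or more of the Panc02-SIY libraries. Each barcode was therefore kept only in the library of its tumor line with the most unique molecular identifiers (UMIs, the counted RNA molecules), which left 1327 of 4678 barcodes in MC38 NT, 1305 of 5165 in MC38 RT, 9405 of 9738 in Panc02-SIY NT and 8731 of 9097 in Panc02-SIY RT. Kept libraries held 1385711 to 43708746 UMIs. Clusters with T cell markers, called T-like, held 100, 122, 3915 and 3182 barcodes in these groups. Their summed level of 8 T cell markers was 3668 to 7030 CPM (UMIs per 1000000 UMIs of the sum) in every library, with none of the 8 at 0 in any group. The 8 macrophage markers summed to 532 to 1350 CPM in T-like sums of MC38 libraries and to 150 to 448 CPM in those of Panc02-SIY libraries, and their part in the values below was not tested.

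Among the classes and subsets listed here, Tcf7 was highest in NK and CD4 T cells. It was not highest in the CD8 T cells that made up most T-like barcodes of Panc02-SIY tumors. T-like barcodes were sorted by UMIs into CD8 T (Cd8a or Cd8b1), CD4 T (Cd4) and Treg (Foxp3, the regulatory T cell factor). Of 7319 T-like barcodes, 5467 were CD8 T, 499 CD4 T and 315 Treg. The rest, with none of these UMIs or with both Cd4 and Cd8, fell in no subset. Their own levels were not measured apart. Classes are compared here only as a description, since clustering made them. In Panc02-SIY NT, Tcf7 averaged 175 ± 22.9 CPM in NK cells and 156 ± 43.5 CPM in CD4 T cells (SD, n = 4 libraries throughout), 2 neighbors in the order that did not differ beyond their spread. cDC, the conventional dendritic cells, followed at 50.3 ± 56.2 CPM, CD8 T cells at 36.4 ± 16.01 and Treg at 21.9 ± 30.4 CPM, and these 3 also lay within their spread of each other. Macrophages (5.89 ± 4.42), monocytes (4.95 ± 4.35), B cells (3.61 ± 7.23) and neutrophils (3.50 ± 4.06 CPM) were lowest. The order was similar in Panc02-SIY RT, with CD4 T cells at 175 ± 57.2 CPM, NK cells at 128 ± 25.2 CPM and CD8 T cells at 52.7 ± 24.9 CPM.

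Levels of Lef1 were highest in lymphocytes. In Panc02-SIY NT it averaged 67.0 ± 15.8 CPM in CD4 T cells, 51.4 ± 14.1 CPM in Treg and 50.6 ± 15.9 CPM in NK cells, 3 levels that did not differ beyond their spread, and 17.2 ± 2.61 CPM in CD8 T cells, below all 3. Treg thus held Lef1 at a level near that of CD4 T cells while their Tcf7 was near that of CD8 T cells. No Lef1 UMI was found in the 475 cDC barcodes of the 4 groups (7040679 UMIs), which allows at most 0.426 CPM and a share of barcodes with a UMI up to 0.632%. This limits barcodes with a UMI, not cells that express the gene. In cDC of Panc02-SIY libraries, the 8 T cell markers summed to 27.2 to 145 CPM and the 8 NK markers to 136 to 448 CPM. The NK markers Ncr1, Klra7 and Klra8 were at 0 in cDC of Panc02-SIY NT, whereas none of the 8 was at 0 in RT. The part of the T cell and NK markers in the Tcf7 of cDC was not tested.

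Klf2 was highest outside the T and NK cells. It averaged 1240 ± 204 CPM in neutrophils and 809 ± 448 CPM in B cells of Panc02-SIY NT, then 465 ± 75.3 in NK cells, 454 ± 113 in monocytes and 366 ± 134 CPM in CD4 T cells. NK cells, monocytes and CD4 T cells lay within their spread of each other. Treg (148 ± 89.3), CD8 T cells (117 ± 47.3) and macrophages (101 ± 55.7 CPM) formed a lower group that likewise overlapped. Klf2 UMIs were frequent in myeloid cells, so Klf2 alone did not separate T cells from other classes in these tumors.

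The 2 receptors were placed differently among the lymphocytes. Il7r was a T cell gene in these libraries, at 504 ± 157 CPM in CD4 T cells, 396 ± 229 in Treg and 218 ± 24.4 CPM in CD8 T cells of Panc02-SIY NT, against 53.1 ± 16.6 CPM in NK cells and 23.2 ± 7.86 CPM in macrophages. Plasmacytoid dendritic cells (pDC) held 567 CPM in the 12 pooled barcodes of that group, too few for values by library. S1pr1 was highest in B cells (259 ± 127 CPM) and CD4 T cells (246 ± 138 CPM), followed by Treg (92.8 ± 60.7), CD8 T cells (45.8 ± 20.5) and NK cells (41.4 ± 6.64 CPM), and it stayed at or under 6.30 CPM on average in the macrophages, monocytes, neutrophils and cDC of that group. CD8 T and NK cells did not differ in S1pr1 beyond their spread.

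**Figure D1:**
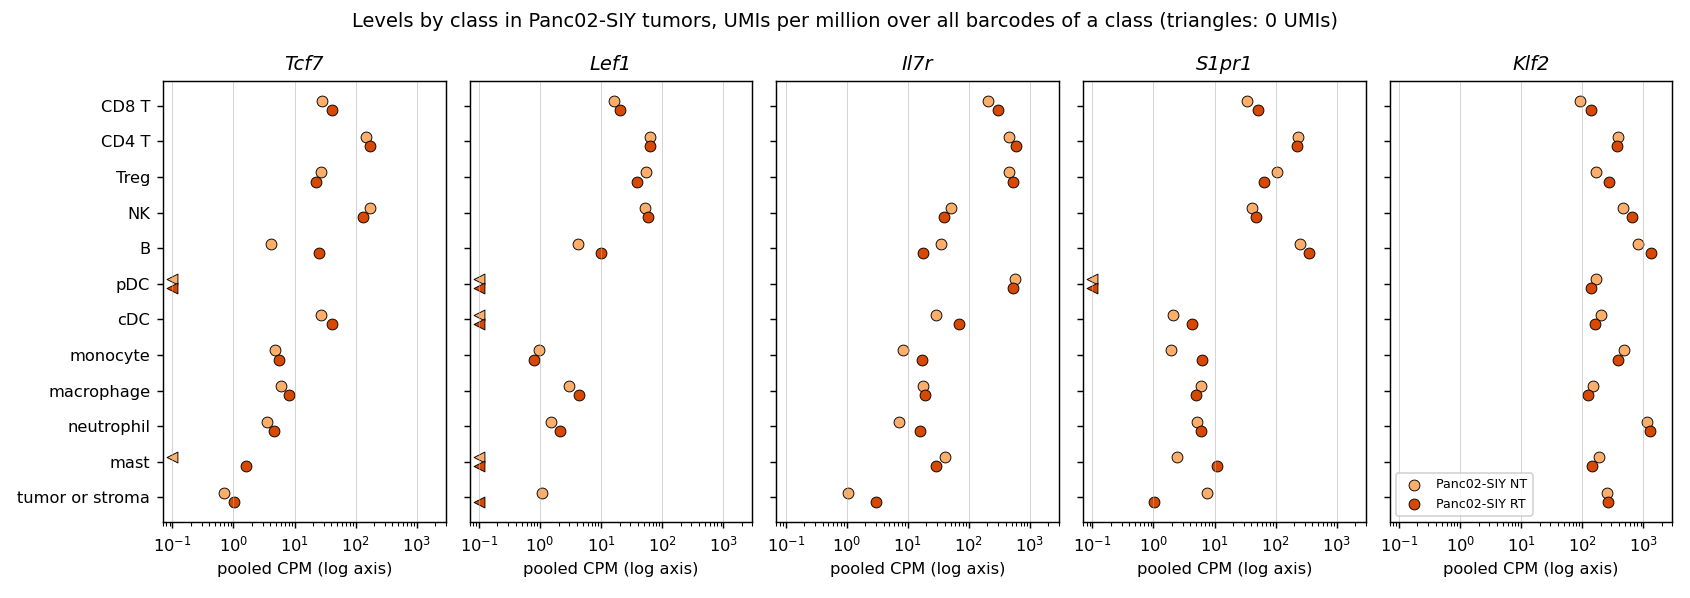
Level of each gene (x axis, pooled CPM on a log axis) in each cell class (y axis) of Panc02-SIY NT (light) and Panc02-SIY RT (dark) tumors, each point pooling all barcodes of a class in 4 libraries, with triangles at the axis edge for 0 UMIs. Tcf7 and Lef1 were high in CD4 T and NK cells, Il7r in T cells and pDC, S1pr1 in B and CD4 T cells, and Klf2 in neutrophils and B cells. T-like barcodes in no subset are not shown.

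The share of barcodes with a UMI depends on depth, so shares were compared after every barcode was thinned to 1000 UMIs. Free RNA in droplets gives a low share in any class, which thinning does not remove. A Tcf7 UMI was then found in 4.75% of T-like barcodes of Panc02-SIY NT (95% Clopper-Pearson interval 4.10 to 5.47%) and 14.1% of NK barcodes (11.7 to 16.8%), against 0.252% of macrophage barcodes (0.0686 to 0.643%). Intervals cover counting error only. Median depths before thinning were 8221, 5634 and 2047 UMIs, and 60 T-like, 16 NK and 610 macrophage barcodes below 1000 UMIs were left out. Without thinning the shares were 17.5%, 46.7% and 2.00%. The thinned shares for Lef1 were 2.57% in T-like and 0.0629% in macrophage barcodes, for S1pr1 6.23% and 0.189%, and for Il7r 21.0% and 1.07%. For Klf2 they were 11.3% in T-like and 10.1% in macrophage barcodes, so the Klf2 share of T-like barcodes stood little above that of a myeloid class.

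The T-like barcodes of Panc02-SIY tumors were not uniform. They fell into 7 clusters, formed without using these 5 genes, and in 2 of them Tcf7, Lef1, S1pr1 and Klf2 were all highest. Cluster 3 (1558 barcodes) had Ccl5, Gzma, Ly6c2 and Cd8b1 among its leading genes. It held Tcf7 at 190 CPM in pooled NT and 267 CPM in pooled RT barcodes. S1pr1 stood there at 213 and 293 CPM, Klf2 at 394 and 537 CPM, and Lef1 at 75.9 and 92.9 CPM. Cluster 10 (602 barcodes, Cd4 among its leading genes) held Tcf7 at 196 and 211 CPM and S1pr1 at 292 and 276 CPM. Klf2 stood there at 427 and 405 CPM and Lef1 at 77.7 and 63.4 CPM. Cluster 0, with Cxcr6 and Cd8a among its leading genes, was by far the most numerous with 3117 barcodes. Tcf7 was there at 7.21 and 7.12 CPM and S1pr1 at 6.25 and 7.34 CPM. These levels are close to the means of macrophages in NT, 5.89 CPM for Tcf7 and 6.30 CPM for S1pr1. Cluster 18 (248 barcodes) held intermediate levels, with Tcf7 at 57.2 and 118 CPM and S1pr1 at 68.5 and 133 CPM. In it 4 of 8 macrophage markers were raised beside all 8 T cell markers, and their part was not tested. Of the 8 NK markers, 5 were raised in cluster 3 and 3 in cluster 0, beside all 8 T cell markers in each. When clustered at resolution 2, clusters with Tcf7 among their leading genes stayed unnamed, since those genes held more NK or monocyte markers. They held 69 and 37, 2 and 79, 20 and 44, and 34 and 23 barcodes of Panc02-SIY NT and RT.

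Il7r did not follow the other 4 genes among the clusters. It stood at 239 (NT) and 279 CPM (RT) in cluster 0, below its 265 and 349 CPM in cluster 3. Cluster 10, with Cd4 among its leading genes, held Il7r at 615 and 691 CPM. Cluster 13 (462 barcodes, Foxp3 among its leading genes) combined Il7r at 603 and 553 CPM and Lef1 at 68.4 and 47.7 CPM with lower Tcf7. That Tcf7 was at 14.5 and 22.7 CPM. The cycling cluster 8 (979 barcodes, Mki67 among its leading genes) was below clusters 3 and 10 in all 5 genes. It held Tcf7 at 18.2 and 31.5 CPM and Il7r at 136 and 230 CPM. Its Tcf7, Lef1, S1pr1 and Klf2 lay above those of cluster 0 in both groups, and its Il7r lay below. All 5 genes were detected together in 2.55% of T-like barcodes of Panc02-SIY NT and 3.83% of Panc02-SIY RT, and none of them in 19.0% and 21.4%.

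**Figure D2:**
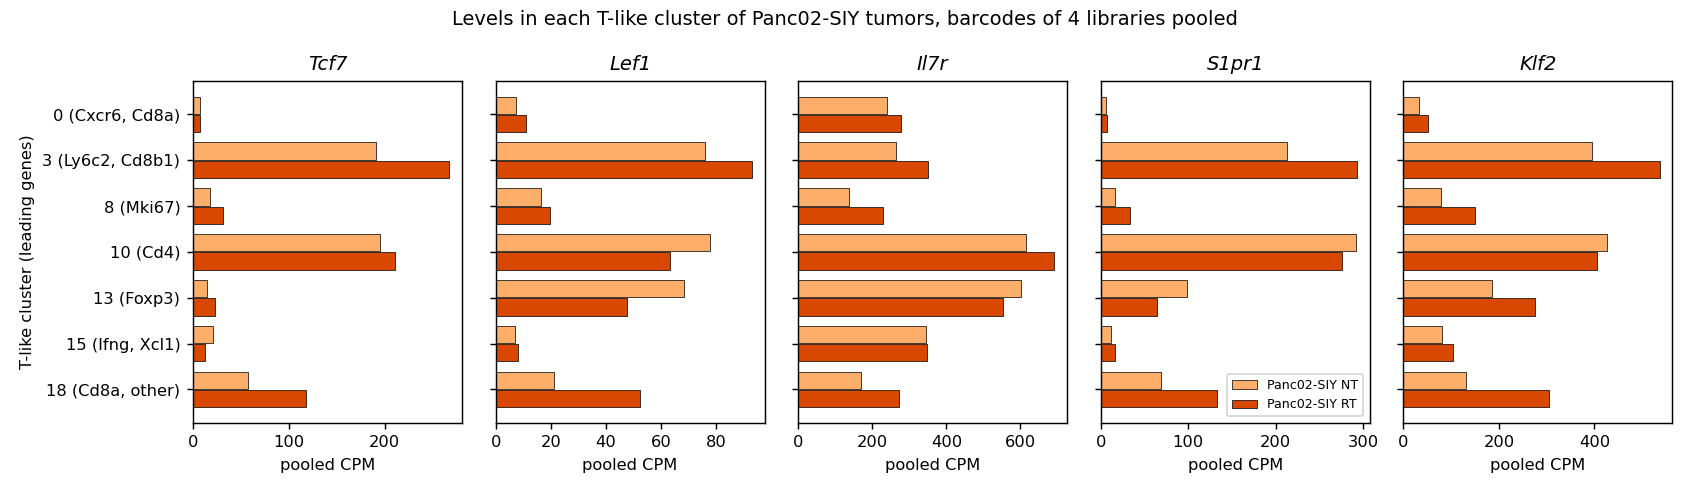
Level of each gene (x axis, pooled CPM) in each T-like cluster (y axis, cluster number with leading genes) of Panc02-SIY NT (light bars) and RT (dark bars), barcodes of 4 libraries pooled. Clusters 3 and 10 held the highest Tcf7, S1pr1 and Klf2, and cluster 0 held Tcf7 and S1pr1 under 8 CPM but Il7r at 239 and 279 CPM.

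The first comparison asked whether the T cells of an irradiated tumor differed in these genes 24 h after radiation. Over all genes, expression sums per library were compared with edgeR's quasi-likelihood test and Benjamini-Hochberg adjustment, and calls needed an adjusted p under 0.1 and a fold above 1.3. None of the 5 genes was called in the T-like barcodes of either tumor, where 4.33% of 10693 genes were called in Panc02-SIY and 0.514% in MC38. All 5 had a positive log2 fold change (RT over NT) in both. In MC38 the values of Tcf7 and Lef1 were smaller than their standard errors, and each changed sign in 3 of 22 alternatives. Across the 16 comparisons between conditions reported here, 0 of 71 tests of the 5 genes were called by edgeR. By comparison, edgeR called from 0% to 13% of all genes tested. DESeq2 called 2 of the 71, which are not set beside its share over all genes. With edgeR, 11 (15.5%) had an unadjusted p under 0.05. Over all genes 13.6% of 158798 tests in the same comparisons had an unadjusted p under 0.05, a share near that of the 5 genes.

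Tcf7 in T-like barcodes was 77.1, 53.1, 58.4 and 31.9 CPM in the 4 Panc02-SIY NT libraries and 161.5, 76.9, 87.6 and 67.4 CPM in the 4 RT libraries. The lower RT libraries overlapped the highest NT library. The log2 fold change was 0.77 ± 0.29 (SE), with an unadjusted p of 0.0199 and an edgeR adjusted p of 0.203. This call of Tcf7 depended on the setting, with edgeR adjusted p from 0.00987 to 0.481 over 22 alternatives. In MC38, Tcf7 was 55.0, 47.4, 38.3 and 21.2 CPM in NT and 39.8, 0, 34.9 and 63.0 CPM in RT libraries, and the groups overlapped throughout (log2 fold change 0.15 ± 0.67, edgeR adjusted p = 0.971).

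Il7r in Panc02-SIY T-like barcodes was 271.5, 234.5, 294.4 and 191.6 CPM in NT and 354.2, 444.9, 317.3 and 267.6 CPM in RT libraries. A single RT library lay within the NT range. The log2 fold change of Il7r was 0.43 ± 0.16, with an unadjusted p of 0.0127 and an edgeR adjusted p of 0.164. In MC38, Il7r was 237.0, 243.1, 229.8 and 244.1 CPM in NT and 262.4, 321.4, 340.1 and 293.3 CPM in RT libraries, which did not overlap. The test did not pass there either (log2 fold change 0.31 ± 0.20, edgeR adjusted p = 0.618).

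Klf2 in Panc02-SIY T-like barcodes was 179.5, 176.3, 151.3 and 76.1 CPM in NT and 480.0, 245.3, 266.1 and 104.8 CPM in RT libraries. Of the 4 RT libraries, 3 lay above every NT library and 1 within their range (log2 fold change 0.85 ± 0.42, edgeR adjusted p = 0.343). In MC38, Klf2 was 178.6, 118.6, 236.2 and 164.5 CPM in NT and 238.6, 814.2, 283.4 and 545.3 CPM in RT libraries, again without overlap, although the lowest RT library exceeded the highest NT library by little. Its log2 fold change of 1.29 ± 0.54 had an unadjusted p of 0.0327 and an edgeR adjusted p of 0.410.

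S1pr1 in Panc02-SIY T-like barcodes was 66.1, 70.1, 88.5 and 29.9 CPM in NT and 168.3, 126.7, 107.2 and 54.9 CPM in RT libraries, and Lef1 was 39.2, 24.7, 29.0 and 19.6 CPM in NT and 67.4, 36.7, 40.0 and 25.0 CPM in RT libraries. Both overlapped between groups (S1pr1 0.78 ± 0.43, Lef1 0.50 ± 0.28, edgeR adjusted p = 0.400 for each). In MC38, S1pr1 was 41.2, 89.0, 12.8 and 42.4 CPM in NT and 103.4, 471.4, 39.2 and 77.6 CPM in RT libraries, and Lef1 was 20.6, 89.0, 44.7 and 15.9 CPM in NT and 39.8, 107.1, 39.2 and 41.2 CPM in RT libraries. The highest value of S1pr1, Lef1 and Klf2 in MC38 RT came from replicate 2, with 12 T-like barcodes and a median mitochondrial share of 12.7%. The log2 fold changes in MC38 were 1.16 ± 0.86 for S1pr1 and 0.20 ± 0.64 for Lef1, and without replicate 2 they were 0.65 and 0.09, with Klf2 at 1.14. With all barcodes as deposited, the MC38 log2 fold changes were 0.92 for S1pr1, 0.04 for Lef1, 0.93 for Klf2, 0.31 for Tcf7 and 0.27 for Il7r, none of them called.

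**Figure D3:**
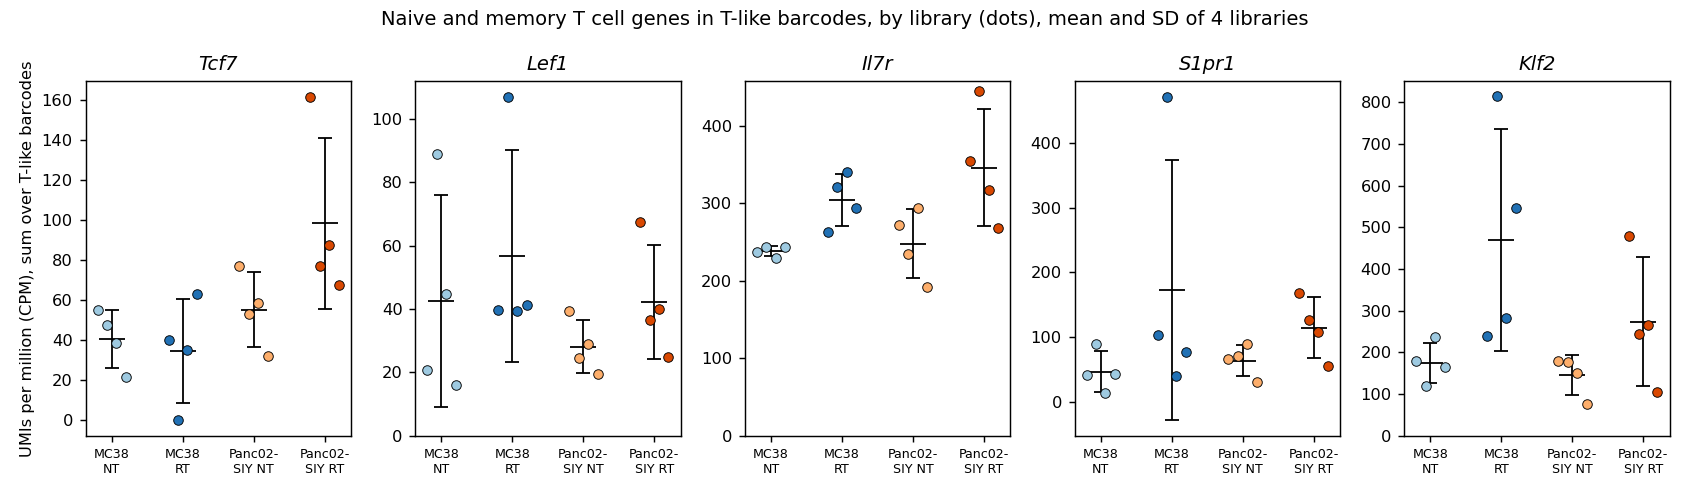
CPM (y axis) of each gene summed over the T-like barcodes of each library (dots), with the mean and SD of the 4 libraries of each group (bars). In Panc02-SIY the RT means lay above the NT means for all 5 genes with overlapping libraries, and in MC38 the RT libraries of Il7r and Klf2 lay above all NT libraries.

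The makeup of the T-like barcodes differed along with these means in Panc02-SIY tumors. The cycling cluster made up 15.9 ± 6.76% of T-like barcodes in NT and 5.86 ± 3.81% in RT libraries, CD8 T cells 77.9 ± 7.19% and 65.3 ± 15.01%, and CD4 T cells 5.65 ± 1.69% and 10.3 ± 6.92%. Within both groups the library with the largest cycling and CD8 shares was replicate 4 (23.5% and 85.6% in NT, 10.6% and 77.6% in RT), which also held the lowest Tcf7, Lef1, Klf2, Il7r and S1pr1. Without the cycling cluster the log2 fold changes were smaller, at 0.54 for Tcf7, 0.23 for Il7r, 0.65 for Klf2, 0.48 for S1pr1 and 0.35 for Lef1, with edgeR adjusted p from 0.481 to 0.758. Treg made up 4.86 ± 3.73% in NT and 4.99 ± 2.82% in RT libraries, and the remaining T-like barcodes fell in no subset. On average the share in no subset was larger in RT than in NT, though the libraries overlapped, and its part was not tested. The part of the CD8 and CD4 shares was not tested beyond the separate sums that follow, which leave those remaining barcodes out.

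Within CD8 T cells of Panc02-SIY, all 5 genes again had positive log2 fold changes and none was called, where 5.84% of 12653 genes were. Il7r was 216.6, 226.0, 243.6 and 185.4 CPM in NT and 243.5, 376.4, 279.7 and 259.9 CPM in RT libraries, which overlapped by 1 pair of nearly equal values (0.32 ± 0.14, unadjusted p = 0.0299, edgeR adjusted p = 0.213). Tcf7 was 56.0, 30.3, 41.1 and 18.4 CPM in NT and 88.2, 44.6, 48.0 and 30.1 CPM in RT libraries (0.37 ± 0.41, edgeR adjusted p = 0.711). Klf2, S1pr1 and Lef1 had log2 fold changes of 0.66 ± 0.59, 0.42 ± 0.64 and 0.43 ± 0.31 with edgeR adjusted p from 0.520 to 0.814. In CD4 T cells, where 0.619% of 9049 genes were called, the 5 log2 fold changes ran from -0.21 ± 0.46 (S1pr1) to 0.16 ± 0.24 (Tcf7). In Treg, where 0.602% of 6814 genes were called and Tcf7 was too low to be tested, they ran from -0.67 ± 0.38 (S1pr1) to 0.56 ± 0.47 (Klf2). DESeq2 called none of the 5 in these subsets, and too few MC38 libraries held 10 barcodes of a subset for a test.

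In NK cells of Panc02-SIY tumors, Tcf7 and Klf2 lay on opposite sides of 0. Tcf7 was 191.8, 188.6, 178.8 and 142.0 CPM in NT and 92.4, 140.6, 150.0 and 127.8 CPM in RT libraries, with 1 RT library above the lowest NT library. Klf2 was 572.5, 432.4, 454.9 and 399.7 CPM in NT and 815.2, 699.0, 725.3 and 455.1 CPM in RT libraries, with 3 of the 4 RT libraries above every NT library. The log2 fold change was -0.49 ± 0.19 for Tcf7 (unadjusted p = 0.0147, edgeR adjusted p = 0.349) and 0.48 ± 0.17 for Klf2 (unadjusted p = 0.00625, edgeR adjusted p = 0.252), and neither was called by edgeR or DESeq2 where 0.743% of 9966 genes were called by edgeR. The call of Tcf7 depended on the setting, with edgeR adjusted p from 0.0470 to 0.655 over 21 alternatives. The T cell markers summed to 1089 to 1621 CPM in NK cells of these NT libraries and 991 to 1289 CPM in those of RT libraries, and their part was not tested.

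In NK cells of MC38 tumors, where 0.281% of 9966 genes were called, no gene of the 5 was. Their log2 fold changes were 0.92 ± 0.65 for S1pr1, 0.44 ± 0.24 for Klf2, 0.32 ± 0.46 for Tcf7, 0.27 ± 0.42 for Lef1 and -0.01 ± 0.82 for Il7r. With all barcodes as deposited, which were also clustered anew, they were 1.22, 0.16, -0.08, -0.20 and -1.88 in the same order. The sign of Tcf7 and Lef1 thus depended on this setting.

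Outside the lymphocytes, Lef1 and S1pr1 were low, and Tcf7 was low except in cDC, where it differed by 0.22 ± 1.05 in Panc02-SIY (edgeR adjusted p = 0.982). In MC38 macrophages, where 13% of 12033 genes were called, Klf2 was 172.7, 192.9, 249.7 and 190.7 CPM in NT and 317.5, 283.0, 202.9 and 300.7 CPM in RT libraries, which overlapped by 1 library on either side (0.53 ± 0.24, unadjusted p = 0.0401, edgeR adjusted p = 0.183). Il7r there had a log2 fold change of 0.74 ± 0.37 that edgeR did not call (adjusted p = 0.246), while DESeq2 called it at 0.94 (adjusted p = 0.0875, with 0.0875 to 0.502 over 21 alternatives). In Panc02-SIY macrophages, where 7.59% of 12033 genes were called, Klf2 differed by 0.03 ± 0.26. Il7r had log2 fold changes of 1.13 ± 0.47 in monocytes (0.309% of 10346 genes called) and 1.08 ± 0.50 in neutrophils (0.025% of 8001 genes called), from means of 7.34 and 7.06 CPM to 18.9 and 14.6 CPM. The unadjusted p was 0.0258 and 0.0397, and neither was called.

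In B cells, where 0.021% of 4764 genes were called, Klf2 was 943.9, 513.1, 1381 and 398.5 CPM in NT and 2212, 1124, 1078 and 1307 CPM in RT libraries of Panc02-SIY. The groups overlapped (0.64 ± 0.25, unadjusted p = 0.0223, edgeR adjusted p = 0.502), and S1pr1 differed by 0.31 ± 0.27. In cDC, where 1.27% of 9708 genes were called, Il7r was 168.0, 7.36, 26.5 and 11.3 CPM in NT and 13.6, 119.9, 48.3 and 67.8 CPM in RT libraries. Replicate 1 of NT stood far above the other NT libraries, and the log2 fold change of 0.65 ± 0.89 became 2.24 without it, with an edgeR adjusted p of 0.0330 (0.0330 to 0.999 over 21 alternatives). Some cDC clusters were filled unequally by the 2 groups. The cluster with Cd209a and Cxcl10 among its leading genes had 12 NT and 64 RT barcodes. Those with Xcr1 had 47 and 12, 35 and 12, 24 and 28, and 14 and 11. The cluster with Fscn1 and Ccr7 had 44 and 63. The 7 monocyte markers had a median sum of 582 CPM in cDC of NT and 1655 CPM in cDC of RT libraries, and their part was not tested.

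**Figure D4:**
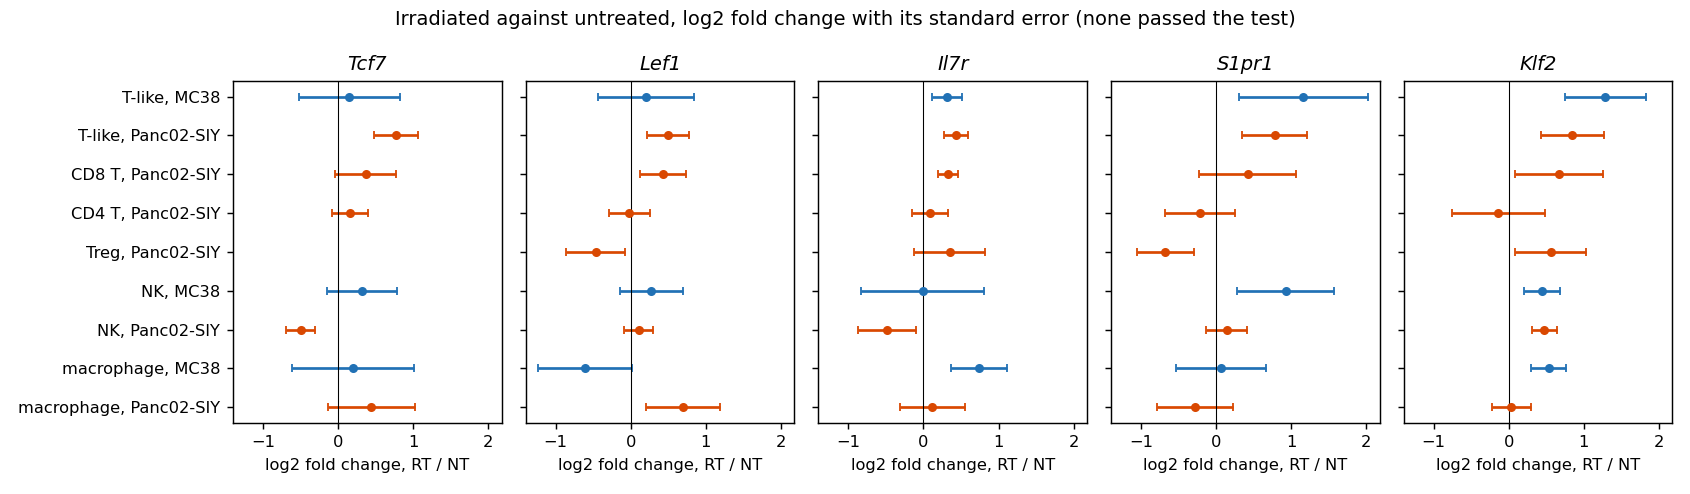
Log2 fold change of RT over NT (x axis) with its standard error (bars) for each gene in the classes with counts enough to test (y axis), MC38 in blue and Panc02-SIY in orange. None passed the test, and in T-like barcodes all 5 genes lay above 0 in both tumors, from 0.15 (Tcf7, MC38) to 1.29 (Klf2, MC38). For Tcf7 and Lef1 in MC38 T-like barcodes the standard error exceeded the value.

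The 2 tumor lines differ in depth, in shared barcodes and in the makeup of the T-like barcodes as well as in the tumor, and these cannot be told apart. T-like barcodes were 30.3% CD8 T, 13.4% CD4 T and 20.1% Treg in MC38 NT libraries on average, against 77.9%, 5.65% and 4.86% in Panc02-SIY NT. In RT libraries they were 31.4%, 24.3% and 14.95% in MC38, against 65.3%, 10.3% and 4.99% in Panc02-SIY. Il7r in T-like barcodes averaged 238 ± 6.60 CPM in MC38 NT and 248 ± 45.0 CPM in Panc02-SIY NT (log2 fold change of MC38 over Panc02-SIY -0.14 ± 0.18), and the other 4 genes likewise differed by less than the standard error. None was called where 12.1% of 10693 genes were. In RT libraries, where 12% of genes were called, Tcf7 averaged 34.4 ± 26.0 CPM in MC38 and 98.4 ± 42.9 CPM in Panc02-SIY, with every Panc02-SIY library above every MC38 library. Its log2 fold change of -1.07 ± 0.49 had an unadjusted p of 0.0437 and an edgeR adjusted p of 0.205, and DESeq2 called it (adjusted p = 0.0834, with 0.0667 to 0.515 over 22 alternatives). In the interaction test, which sets the response to radiation in one tumor against that in the other, none of the 5 was called, with log2 differences from -0.62 ± 0.73 (Tcf7) to 0.44 ± 0.68 (Klf2). That test called 0% of 10693 genes, with 584 at an unadjusted p under 0.05 and 1 called by DESeq2.

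Over all CD45+ barcodes, Tcf7 averaged 4.55 ± 1.76 CPM in MC38 NT and 51.1 ± 24.5 CPM in Panc02-SIY NT, and T-like barcodes made up 7.78 ± 0.892% and 42.5 ± 3.59% of the barcodes. In these whole-sample sums, fewer cells of a type and less RNA per cell cannot be told apart. After radiation the sums were 5.42 ± 2.89 and 60.0 ± 20.05 CPM, while NK cells went from 8.64 ± 2.44% to 13.2 ± 1.10% of barcodes in MC38 and from 10.0 ± 4.47% to 16.2 ± 3.60% in Panc02-SIY.

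Other genes of these pathways were taken from lists of partners and responders. In Panc02-SIY T-like barcodes after radiation, 4.33% of all 10693 genes were called, 264 higher and 199 lower. There 2 of 18 tested naive and memory partners were called higher and 0 lower (median log2 fold change of the list 0.47, of all genes 0.06). The 2 were Satb1, a chromatin organizer of T cells, at 0.66 ± 0.18 and the adhesion receptor Cd44 at 0.51 ± 0.16. Of the IL-7 signaling list 2 of 12 were called higher, the survival factor Bcl2 at 0.75 ± 0.19 and the cytokine signaling inhibitor Socs3 at 0.68 ± 0.20 (list median 0.25). Of the KLF and FOXO list 2 of 9 were higher, Foxo3 at 0.73 ± 0.20 and Foxp1 at 0.55 ± 0.16, both forkhead factors (list median 0.52). Of 22 effector and exhaustion genes 1 was called, the effector regulator Prdm1 at 0.48 ± 0.15 (list median 0.18), and none of 10 TCF and LEF cofactors (median 0.23) or of 9 S1P egress and retention genes (median 0.15) passed. Bcl2 was named by its p, and the other genes of this paragraph were named after their values were seen.

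A check of radiation in the same barcodes used 5 p53 target genes. All 5 rose in Panc02-SIY T-like barcodes, Phlda3 by a log2 fold change of 5.04 ± 0.27, the cell cycle inhibitor Cdkn1a by 3.57 ± 0.32, Ccng1 by 2.23 ± 0.17, the apoptosis gene Bax by 1.35 ± 0.18 and the p53 ligase Mdm2 by 0.86 ± 0.13. In MC38 T-like barcodes, where 0.514% of 10693 genes were called, 4 of the 5 rose (Phlda3 3.53, Cdkn1a 1.97, Ccng1 1.74 and Bax 1.25). Of the other lists 1 gene did, the zinc finger factor Klf6 at 1.26 ± 0.24. The list medians in MC38 were 0.11 for naive and memory partners, 0.60 for KLF and FOXO, 0.20 for IL-7 signaling, -0.10 for TCF and LEF cofactors, 0.04 for S1P genes and -0.05 for effector genes, beside -0.02 for all genes.

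Between the tumors, T-like barcodes of MC38 NT held more Socs3 (log2 fold change 1.76 ± 0.28), Socs1 (0.84 ± 0.18), Cdkn1a (2.42 ± 0.40) and the activation gene Nr4a1 (1.22 ± 0.27) and less Tox, a factor of exhausted T cells (-0.97 ± 0.21), and Satb1 (-0.91 ± 0.22) than those of Panc02-SIY NT. Among RT libraries, the lymph node homing receptor Ccr7 was higher in MC38 (2.04 ± 0.40), and Tox (-1.49 ± 0.23), Actn1 (-1.65 ± 0.36), Foxo1 (-1.26 ± 0.27), Ccng1 (-1.04 ± 0.21) and Bcl2 (-0.99 ± 0.21) were lower. Among naive and memory partners this made 0 higher and 1 lower of 18 in NT and 2 higher and 2 lower in RT. Over all 10693 genes 12.1% were called in NT and 12% in RT. The list medians were 0.21 and -0.14, beside -0.04 and -0.10 for all genes.

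The last comparison used Tcf7 itself, within the libraries. T-like barcodes of the 8 Panc02-SIY libraries were divided into those with at least 1 Tcf7 UMI (684 in NT and 659 in RT) and those with none (3231 and 2523), summed, and compared with the library as a block, Tcf7 left out. A barcode without a Tcf7 UMI need not lack Tcf7. The median UMIs per barcode were 7884 with and 8288 without in NT, and 5578 and 6102 in RT. The split called 22.5% of 10833 genes, 1349 higher and 1086 lower with Tcf7, and 3 of the other 4 genes were among those higher. With every barcode thinned to 1000 UMIs and fewer genes tested the balance turned, with 188 higher and 422 lower of 5755 genes. In MC38 only 13 and 18 barcodes held a Tcf7 UMI, too few for this test.

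S1pr1 ran from 118 to 354 CPM (median 254) in the sums with Tcf7 and from 14.6 to 73.9 CPM (median 43.5) in those without, so the 2 sets of 8 sums did not overlap. Its log2 fold change was 2.69 ± 0.21 (edgeR adjusted p = 3.36e-05), higher in 8 of 8 libraries. Lef1 ran from 57.1 to 141 CPM (median 93.4) with and from 11.3 to 27.9 CPM (median 18.8) without, again with no overlap, at 2.26 ± 0.10 (edgeR adjusted p = 1.55e-17, 8 of 8 libraries). Klf2 ran from 222 to 821 CPM (median 412) with and from 52.8 to 296 CPM (median 119) without, overlapping across libraries but higher with Tcf7 in 8 of 8 within them, at 1.85 ± 0.13 (edgeR adjusted p = 7.60e-06).

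Il7r behaved otherwise. It ran from 181 to 465 CPM (median 345) with and from 193 to 440 CPM (median 271) without a Tcf7 UMI, almost the same range, and was higher with Tcf7 in 6 of 8 libraries. Its log2 fold change of 0.20 ± 0.08 had an edgeR adjusted p of 0.0691 but did not reach a fold of 1.3. Within CD8 T cells alone the same 3 genes were called and Il7r differed by 0.11 ± 0.09 (edgeR adjusted p = 0.428), whereas with every barcode thinned to 1000 UMIs Il7r was called at 0.58 ± 0.14 (edgeR adjusted p = 0.000566) along with the other 3.

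Of 18 naive and memory partners 15 were higher with Tcf7 and 1 lower, among them Ccr7 (2.89 ± 0.12), the interleukin-6 receptor Il6ra (2.84 ± 0.17), the filamin regulator Rflnb (3.02 ± 0.20), the repressor Bach2 (1.19 ± 0.10) and Satb1 (0.59 ± 0.05), while the one lower gene, the costimulatory receptor Cd27, was at -0.44 ± 0.06 and is named after its values were seen. With thinned barcodes 6 of 12 partners were higher and 0 lower, with a list median of 0.92 (all genes -0.09). Of 22 effector and exhaustion genes 17 were lower and 1 higher, and with thinned barcodes 17 of 19 were lower and 0 higher. The lower ones included the inhibitory receptors Havcr2 (-2.43 ± 0.13), Pdcd1 (-1.80 ± 0.13), Ctla4 (-1.68 ± 0.08) and Tigit (-1.65 ± 0.23), the ectonucleotidase Entpd1 (-2.30 ± 0.14), the transcription factors Prdm1 (-1.69 ± 0.10) and Tox (-1.01 ± 0.10), and the cytotoxic granule genes Gzmb (-1.45 ± 0.09) and Nkg7 (-0.96 ± 0.04). The higher one was Eomes (1.84 ± 0.13), a T-box factor of memory and effector cells.

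Of 9 KLF and FOXO genes 4 were higher with Tcf7 and 0 lower, with Klf3, another Krüppel-like factor, at 3.20 ± 0.10 and Foxp1 at 0.88 ± 0.06. Of 10 TCF and LEF family members and cofactors 5 were higher and 0 lower. The IL-7 list was mixed, with Socs3 (1.64 ± 0.08) and Bcl2 (0.60 ± 0.05) higher and 3 of 12 lower, among them Crlf2, the partner that pairs with the interleukin-7 receptor chain in the TSLP receptor (-0.98 ± 0.08). Of 9 S1P egress and retention genes 1 was higher and 2 lower, and of the 5 radiation genes 1 was lower. The list medians of the log2 fold change were 1.83 for naive and memory partners, -1.48 for effector and exhaustion genes, 0.32 for KLF and FOXO, 0.52 for TCF and LEF, 0.14 for IL-7 signaling, -0.19 for S1P genes and -0.01 for the radiation genes, beside -0.01 for all genes tested.

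The genes of largest fold included receptors better known from NK cells. The 5 highest with Tcf7 were Tmem108 (4.73 ± 0.29), the Ly49 receptor genes Klra6 (4.29 ± 0.20) and Klra7 (3.96 ± 0.36), the gamma delta T cell receptor segment Tcrg-V1 (4.20 ± 0.40) and Tdrp (3.96 ± 0.29). Klra genes are near-identical copies, so counts may be divided among them. The 5 lowest were the granzymes Gzmf (-5.90 ± 0.26) and Gzme (-3.67 ± 0.67), the type 2 cytokine Il13 (-3.77 ± 0.43), Rasd2 (-4.08 ± 0.64) and Gm30262 (-4.01 ± 0.77). The 8 NK markers, Klra7 among them, summed to 1248 CPM with and 997 CPM without Tcf7 in pooled NT barcodes and to 1005 and 997 CPM in RT, against 4805 and 4905 CPM in NK cells. The NK-defining receptor Ncr1 was at 27.4 and 2.21 CPM with and without Tcf7 in NT and at 450 CPM in NK cells. Klrb1c, another NK receptor gene, was at 59.5 and 7.99 CPM in NT and at 75.2 and 13.01 CPM in RT with and without Tcf7. The T cell genes Cd8a (380 against 935 CPM in NT, 308 against 1087 CPM in RT) and Cd3e (528 against 871 and 584 against 971 CPM) were lower with Tcf7. Within CD8 T cells alone, where 17.0% of 9988 genes were called, 13 of 16 naive and memory partners were higher and 0 lower. Of 22 effector and exhaustion genes 17 were lower and 2 higher there, and Klra7 was at 5.14 ± 0.24 and Klra6 at 4.78 ± 0.23. The part of the remaining cell mix in the result was not tested.

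**Figure D5:**
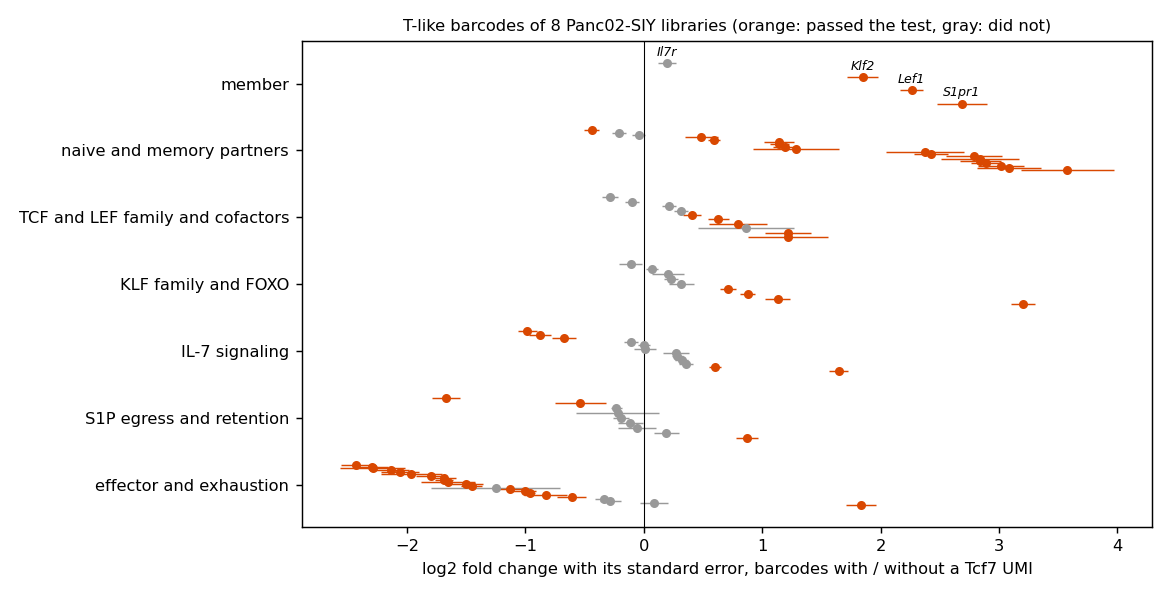
Log2 fold change (x axis) with its standard error (bars) between T-like barcodes with and without a Tcf7 UMI in 8 Panc02-SIY libraries, for the other 4 genes and the genes of each list (y axis), orange where the gene passed the test and gray where it did not. S1pr1, Lef1 and Klf2 lay at 1.85 to 2.69, Il7r at 0.20, most naive and memory partners to the right of 0 and most effector and exhaustion genes to the left.

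Since Lef1, Klf2 and S1pr1 moved with Tcf7 across barcodes, the promoter windows of the genes (250 bases before to 50 after a transcription start, RefSeq, GRCm38.p6) were searched on both strands for the TCF and LEF motif, as CTTTGA or CTTTGT, and for the FOXO motif GTAAACA. Of 8 windows found for 4 of the 5 genes, 2 held a match. No window was available for S1pr1, so its promoter was not searched. The window at an internal start of Lef1, chr3:131156044-131156343 on the plus strand, held 2 copies of CTTTGA, 180 and 120 bases before the start, and 1 of CTTTGT, 146 bases before it, all on the opposite strand. A Tcf7 window, chr11:52282546-52282845 on the minus strand, held GTAAACA 2 bases after the start. The Klf2 window, chr8:72318812-72319111 on the plus strand, held none and is shown beside them. Either TCF and LEF form occurred in 31.2% and the FOXO motif in 3.65% of 32851 windows of the same length, and a match is a description of the letters only. Capitals mark the matches, read on the strand of the gene, so that the Lef1 matches appear as their reverse complements.
Lef1: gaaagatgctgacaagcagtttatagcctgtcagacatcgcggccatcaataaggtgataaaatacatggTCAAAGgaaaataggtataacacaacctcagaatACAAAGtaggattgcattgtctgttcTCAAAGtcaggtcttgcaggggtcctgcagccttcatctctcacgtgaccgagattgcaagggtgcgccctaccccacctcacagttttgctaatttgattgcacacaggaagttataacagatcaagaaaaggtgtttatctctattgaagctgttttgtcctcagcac
Tcf7: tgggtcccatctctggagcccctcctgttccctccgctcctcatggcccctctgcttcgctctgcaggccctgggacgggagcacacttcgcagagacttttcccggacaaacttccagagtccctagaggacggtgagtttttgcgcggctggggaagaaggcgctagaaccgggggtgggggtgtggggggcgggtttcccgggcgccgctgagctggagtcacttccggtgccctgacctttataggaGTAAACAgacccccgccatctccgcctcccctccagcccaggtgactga
Klf2: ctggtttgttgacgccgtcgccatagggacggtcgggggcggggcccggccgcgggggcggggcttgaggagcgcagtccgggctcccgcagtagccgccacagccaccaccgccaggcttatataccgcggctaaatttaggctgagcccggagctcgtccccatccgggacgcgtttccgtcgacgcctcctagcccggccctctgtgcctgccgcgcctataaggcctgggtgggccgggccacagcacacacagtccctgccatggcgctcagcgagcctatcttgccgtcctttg

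The genes whose levels resembled each of the 5 most closely over 28 points (classes by group) were found by Pearson's r on log2(CPM + 20) among 10341 genes, as a description, since points of a library share its depth and free RNA. For Tcf7 they were A930024E05Rik (r = 0.897), Tbx21, Kbtbd11, Il12rb2 and Gm2682, and for Lef1 they were Zfpm1 (r = 0.943), Fasl, Gata3, Itm2a and Tecpr1. Those for Il7r were Il2ra (r = 0.918), Gpm6b, Tnfrsf18, Xlr4a and Ikzf4, and those for S1pr1 were Sfn (r = 0.930), Carmil2, Ikzf3, Atg16l2 and Grap. Klf2 had lower values, with Amn1 (r = 0.854), Ypel5, Crebrf, Fry and Zscan29. None of the 5 was among the 5 nearest genes of another, although Tcf7 and Lef1 had r = 0.820.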

How the data were processed

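CD45+ cells of MC38 and Panc02-SIY tumors were profiled in 16 droplet libraries (10x 3' kit). The authors deposited raw UMI counts per gene and barcode for each library, filtered to called cells; per the labels they used Cell Ranger 3.1.0, bcl2fastq 2.20.0 and mm10. Tables combining all samples were not used.

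The lists and the tests, like the 5 genes, were chosen with earlier results of these data known. Each barcode was kept only in the library of its tumor line with the most UMIs. Barcodes were clustered with scanpy 1.11.5 (2000 variable genes without the 5 genes and the lists, 30 components, 20 neighbors, Leiden resolution 1) and clusters were named from marker lists; clusters whose leading genes pointed to another class were divided once more, a step chosen after the clusters were seen. Clusters with too few markers stayed unnamed. No doublets were removed in the reported values; removing the top 5% of doublet scores was an alternative. Leaving out the cycling T-like cluster was an alternative chosen after the data were seen.

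UMI counts were summed per library and class (at least 10 barcodes, 3 libraries per group) and tested with edgeR 4.0.16 in R 4.3.3 (quasi-likelihood test, TMM, filterByExpr with a minimum count of 3), all groups in 1 fit, called at a Benjamini-Hochberg adjusted p under 0.1 and a fold above 1.3, the limits in the methods of the study. DESeq2 1.42.0 was an alternative. CPM are UMIs per 1000000 UMIs of the sum, and no comparison is made between the levels of different genes. In simulated sums of T-like cells, the test recovered 19.2% of 2-fold and 52% of 4-fold changes in MC38. In Panc02-SIY it recovered 81.8% and 100%. Each share is over 99 or 100 changed genes of 10538, with 3 false calls in MC38 and 15 in Panc02-SIY. The shares do not give the recovery for Tcf7, Lef1, Klf2, Il7r or S1pr1. Their standard errors in Panc02-SIY T-like sums ran from 0.16 (Il7r) to 0.43 (S1pr1). Whether a 2-fold change in each of them would be called was not tested.

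Named genes were the 5 members, list genes called in T-like cells (the 6 with the smallest p per comparison), in the division by Tcf7 the called list genes (the 10 with the smallest p in each direction) and the 5 of largest fold in each direction, and the 5 genes most like each member. Tle5 of the lists had no row. Replicate numbers are not stated to pair libraries and were not used in the reported tests. Deviations from the group means correlated between same-numbered NT and RT libraries at 0.00706 to 0.594 in T-like sums of Panc02-SIY. In MC38 they correlated at 0.000131 to 0.0948. Replicate 4 of Panc02-SIY, at 0.594 in T-like sums, correlated at 0.274 in NK cells and 0.299 in macrophages. What the numbers stand for is not given.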

Additional observations from a re-analysis of the deposited data

Results flagged for a closer look

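Among 128 sets of 4 libraries (a gene in a class and group), 10 held a library whose gap to the nearest other exceeded Dixon's 95% limit. Chance flags about 1 in 20 sets of normally distributed values. A set with UMIs in only 1 library is always flagged, so that rate does not hold for sets with few UMIs. In T-like barcodes of MC38 RT, replicate 2 stood apart at 107 CPM for Lef1 (5 UMIs, the others 39.2 to 41.2 CPM) and at 471 CPM for S1pr1 (22 UMIs, the others 39.2 to 103 CPM), both from 12 barcodes. In CD4 T cells of Panc02-SIY NT, Klf2 was lowest in replicate 1 at 166 CPM, with the others at 418 to 452 CPM. In cDC of Panc02-SIY NT, Il7r was highest in replicate 1 at 168 CPM (43 UMIs in 37 barcodes), with the others at 7.36 to 26.5 CPM.

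The other flagged values rest on 10 UMIs or fewer. Lef1 in monocytes of Panc02-SIY RT was highest in replicate 3 at 2.31 CPM. In neutrophils of Panc02-SIY RT, replicate 1 was highest for Tcf7 at 18.3 CPM and for Lef1 at 9.16 CPM. In B cells, Tcf7 was 14.5 CPM in replicate 2 and Lef1 15.2 CPM in replicate 3 of Panc02-SIY NT, and Tcf7 was 108 CPM in replicate 1 of Panc02-SIY RT, where the other libraries held 0 to 11.8 CPM.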

How the results depend on the processing

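Over 1532 alternative values of the log2 fold changes of the 5 genes, 1425 kept their direction and their side of the threshold, 18 passed it where the reported value did not, 89 uncalled values changed sign and 0 called values reversed. Fitting only the groups compared called 1 of the 5 genes in MC38 T-like barcodes (Klf2), 1 in MC38 macrophages (Klf2) and 2 in Panc02-SIY NK cells (Tcf7 and Klf2). In Panc02-SIY NK cells, all barcodes as deposited, a filter on barcodes and a resolution of 2 each called 1 (Tcf7). All barcodes as deposited called 1 (Il7r) in Panc02-SIY T-like barcodes. DESeq2 called 1 in MC38 macrophages (Il7r) and 1 (Tcf7) between MC38 RT and Panc02-SIY RT T-like barcodes. Leaving out 1 library at a time gave 0 to 1 called genes in Panc02-SIY T-like barcodes (Tcf7 without NT replicate 1), CD8 T cells (Lef1 without RT replicate 4), NK cells (Klf2 without RT replicate 4) and cDC (Il7r without NT replicate 1). The cause was not tested. Neither these counts nor those of the replicate block below are set beside the share of all genes that the same setting called.

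With the replicate number as a block, edgeR called 1 of the 5 genes in Panc02-SIY T-like barcodes (Tcf7, 0.75, adjusted p = 0.00987), 2 in CD8 T cells (Tcf7, 0.43, adjusted p = 0.0107, and Klf2, 0.54, adjusted p = 0.0759) and 1 between the irradiated tumors (Tcf7, -0.94, adjusted p = 0.0667). Over all alternatives their adjusted p ran from 0.00987 to 0.481, 0.0107 to 0.965, 0.0759 to 0.908 and 0.0667 to 0.515 in this order. The numbers are not stated to pair the libraries, and not every library correlated best with its own number. In Panc02-SIY T-like sums, replicates 1 and 4 did so. In NK cells of Panc02-SIY, replicates 2, 3 and 4 did, and in its macrophages replicates 1, 3 and 4. In MC38, replicates 1 and 3 did in T-like sums, and no replicate did in NK cells or macrophages.

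In the division by Tcf7, 2435 genes were called, 610 with barcodes thinned (fewer genes tested) and 1576 with a log2 fold change above 0.58. With a pseudocount of 5 CPM, 2 of the 5 genes most like Tcf7, 5 for Lef1, 4 for Il7r, 3 for S1pr1 and 4 for Klf2 were shared with those given. The MC38 T-like sums rest on 12 to 54 barcodes per library.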
